A study of Mus musculus with 13 samples.

Results

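The 40 genes described here encode MYC and its partners, the RNA polymerase I machinery and nucleolar proteins that build ribosomes. They were chosen by symbol from a list of nucleolar, RNA polymerase I and MYC genes, with earlier results of these data known. All 40 were found among the 14911 genes of the deposited table. Polyadenylated RNA came from the whole hamstring, taken from female C57BL/6 mice on day 4 after cardiotoxin (0.32 mg/kg) had been injected into the muscle. Cardiotoxin comes from snake venom and kills muscle fibres, which then regenerate. The saline group held 4 mice (numbers 1, 2, 3 and 5), which received intraperitoneal saline once daily. The dexamethasone group held 9 mice (numbers 1 to 9), which received the synthetic glucocorticoid dexamethasone at 10 mg/kg once daily by the same route. All 13 mice thus carried the cardiotoxin injury, each library came from a separate mouse, and an uninjured group was not analysed here. The submitters state that bone formed in the injured muscle of every dexamethasone mouse and that a saline mouse with bone was excluded, so drug and bone formation cannot be told apart in this comparison.

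Ribosomes are assembled in the nucleolus. RNA polymerase I copies ribosomal DNA into a long precursor, small nucleolar ribonucleoproteins (snoRNPs) modify that precursor, and separate sets of assembly factors then fold and cut it into the small and the large subunit. MYC, a transcription factor that binds the E-box CACGTG as a dimer with MAX, is known for driving many of these genes in growing cells, while MXD1 competes with MYC for MAX. In injured muscle the cells that grow and divide include myoblasts, stromal cells, endothelium and macrophages.

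Under dexamethasone 28 of the 40 genes rose, 0 fell and 12 did not pass the test (limma with Benjamini-Hochberg adjustment over all genes, adjusted p under 0.05). Myc led with a 1.90-fold rise, followed by Srm (1.71-fold), Nop58 (1.65-fold), Ddx21 (1.58-fold), Gar1 (1.55-fold) and Heatr1 (1.53-fold). The rises were otherwise small, and the median over the 40 genes was 0.28 on the log2 scale (1.22-fold) against 0.00706 over all genes. Over the full table, 25.2% of genes passed as higher and 22.9% as lower. Among the 8652 genes whose mean level lay within the range of the 40 (3.55 to 8.25 log2 CPM, where CPM is a count scaled to library size), 29.7% were called higher. In 20 of the 40 genes every dexamethasone library lay above every saline library, which held for 12.9% of all genes. The authors' deposited table had 27 of the 40 past an adjusted p of 0.05 as higher and 0 as lower, and all 27 were called here too.

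**Figure D1:**
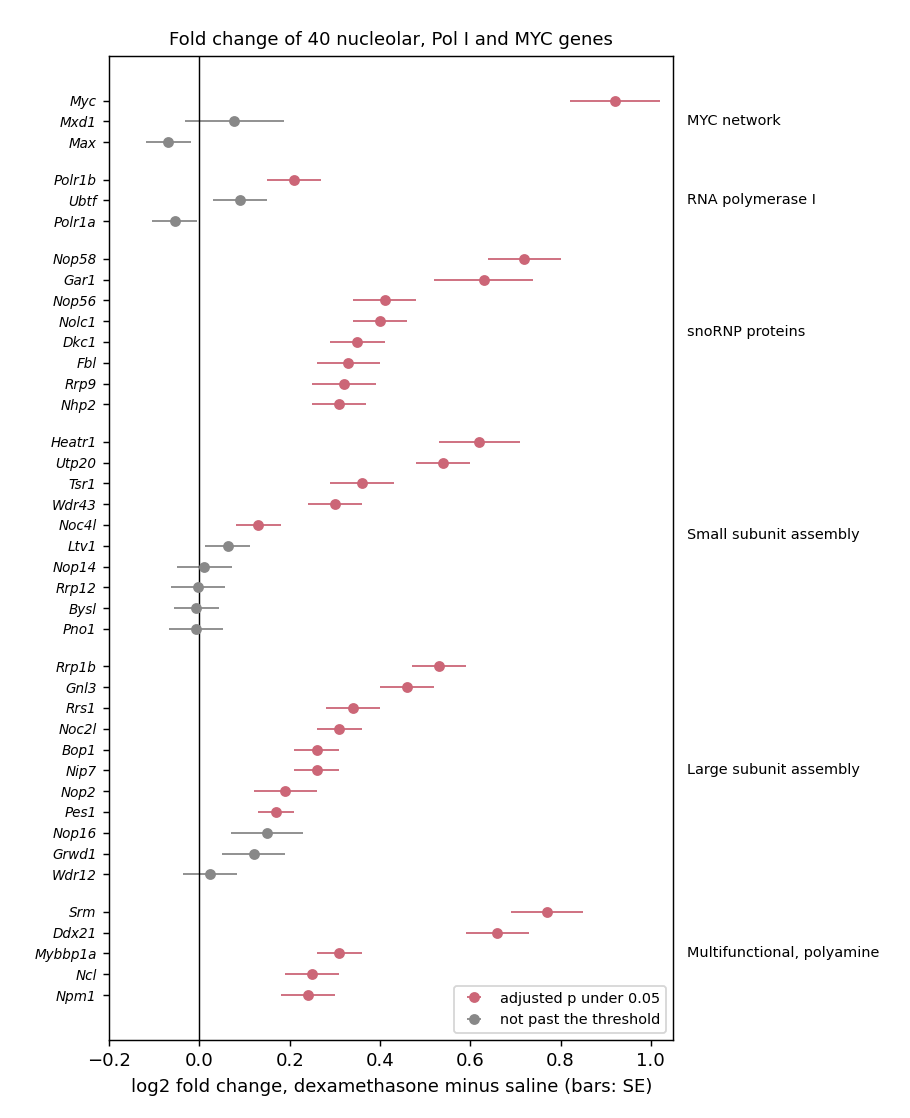
Difference of mean log2 CPM, dexamethasone minus saline, for each of the 40 genes, ordered within 6 role groups; points are estimates, bars are SE, and colour marks an adjusted p under 0.05. All 8 snoRNP genes lie to the right of 0, while 5 of 10 small subunit genes lie close to it.

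Levels were taken from 25531487 to 34942266 reads per library. Every member was well covered, from 179 reads for Gar1 in its lowest library to 11620 reads for Ncl in its highest. Muscle identity was checked by 12 mature myofibre genes, whose summed level was 123000 to 181000 CPM in saline and 77600 to 118000 CPM in dexamethasone libraries.

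The MYC network changed in Myc alone among the 3 members. Myc (chromosome 15, 61985341 to 61990361, mm10) stood at 3.98, 4.12, 4.23 and 4.41 log2 CPM in saline libraries 1, 2, 3 and 5. In the 9 dexamethasone libraries it ranged from 4.84 to 5.44 with a median of 5.10. The groups did not overlap, saline library 5 being the highest of its group and dexamethasone library 4 the highest of all. The means were 4.18 ± 0.18 and 5.11 ± 0.18 (SD, n = 4 and 9), a log2 fold change of 0.92 ± 0.10 (SE; limma adjusted p 2.59e-06).

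Max, the obligate partner of MYC, stood at 5.38, 5.45, 5.54 and 5.62 log2 CPM in saline and at 5.31 to 5.50 with a median of 5.46 in dexamethasone libraries. All 9 dexamethasone libraries lay within or below the saline range. The log2 fold change was -0.069, with a 95% interval from -0.18 to 0.042 (limma adjusted p 0.294). Mxd1, the competitor, stood at 3.60, 3.77, 3.98 and 3.74 in saline and at 3.51 to 4.11 with a median of 3.93 in dexamethasone libraries. Its groups overlapped widely, with a 95% interval of the log2 difference from -0.15 to 0.30 (limma adjusted p 0.578).

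Of 11 other measured members of the network, 2 rose and 1 fell, both shares under the 25.2% and 22.9% of all genes. Mnt, a repressor that pairs with MAX, rose 1.25-fold and Mlx, its relative of the glucose-sensing branch, 1.22-fold. Mycl, a MYC paralogue, was 1.43-fold lower, and Mxd4 had a log2 fold change of -0.11 (limma adjusted p 0.0574).

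Of the 3 RNA polymerase I members 1 rose and 0 fell, beside 25.2% and 22.9% of all genes. Polr1b, the second largest subunit, stood at 4.55, 4.62, 4.41 and 4.53 log2 CPM in saline and at 4.63 to 4.86 with a median of 4.75 in dexamethasone libraries. Every dexamethasone library was above every saline library, by a narrow margin at the lowest. The log2 fold change was 0.21 ± 0.06 (SE; limma adjusted p 0.00945), and the call was lost (limma adjusted p 0.0644) in the fit that dropped both saline library 3 and dexamethasone library 4.

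Ubtf, which encodes the upstream binding factor that opens ribosomal DNA, had the highest level per length of the 3 polymerase I members, at 33.1 CPM per kilobase in saline and 35.2 in dexamethasone. It stood at 6.53, 6.60, 6.77 and 6.83 log2 CPM in saline and at 6.67 to 6.84 with a median of 6.80 in dexamethasone libraries. The dexamethasone values sat at the upper end of a wide saline range (95% interval of the log2 difference from -0.028 to 0.21; limma adjusted p 0.194). Polr1a, the catalytic subunit, had a log2 fold change of -0.055 (95% interval from -0.16 to 0.049; limma adjusted p 0.373).

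Of the 12 other measured polymerase I subunits and factors 4 rose and 1 fell, with a median of 0.013. Over all genes 25.2% rose and 22.9% fell. Taf1d, of the promoter selectivity factor, rose 1.35-fold, Polr1e, a subunit, 1.24-fold and Rrn3, the initiation factor that links polymerase to promoter, 1.15-fold. Polr1c, a subunit shared with RNA polymerase III, was 1.13-fold lower.

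All 8 snoRNP members rose, with log2 fold changes from 0.31 to 0.72 and a median of 0.38. Nop58 (chromosome 1, 59684961 to 59711510), a core protein of the box C/D snoRNPs that guide methylation, stood at 4.65, 4.64, 4.75 and 5.10 log2 CPM in saline libraries. In dexamethasone libraries it ranged from 5.29 to 5.71 with a median of 5.50. The groups did not overlap, and saline library 5 was nearest to them (log2 fold change 0.72 ± 0.08, SE; limma adjusted p 7.21e-06). Its partners Nop56 and Fbl, the methyltransferase fibrillarin, rose 1.33- and 1.26-fold, each with 8 of 9 dexamethasone libraries above the highest saline library.

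Among the members, proteins of the box H/ACA snoRNPs, which guide pseudouridylation, rose as well. Nhp2 stood at 4.78, 4.50, 4.71 and 4.84 log2 CPM in saline and at 4.93 to 5.15 with a median of 5.01 in dexamethasone libraries. It had the highest level per length among the snoRNP members, at 25.2 and 31.2 CPM per kilobase, and its groups did not overlap (log2 fold change 0.31 ± 0.06, SE; limma adjusted p 0.000679). Gar1 and the pseudouridine synthase Dkc1 rose 1.55- and 1.28-fold, also without overlap. Gar1 spread widely in saline, from 2.80 log2 CPM in library 1 to 3.56 in library 5, against 3.58 to 3.86 in dexamethasone. Nolc1, a chaperone of snoRNPs, rose 1.32-fold and Rrp9, a U3 snoRNP protein, 1.25-fold.

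Of 11 other measured snoRNP genes, 4 rose and 1 fell, beside 25.2% and 22.9% of all genes. Tcof1, the treacle protein that ties polymerase I to snoRNPs, rose 1.27-fold, the assembly factors Shq1 and Nufip1 rose 1.27- and 1.18-fold, and Pih1d1 of the assembly cochaperone complex was 1.21-fold lower.

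**Figure D2:**
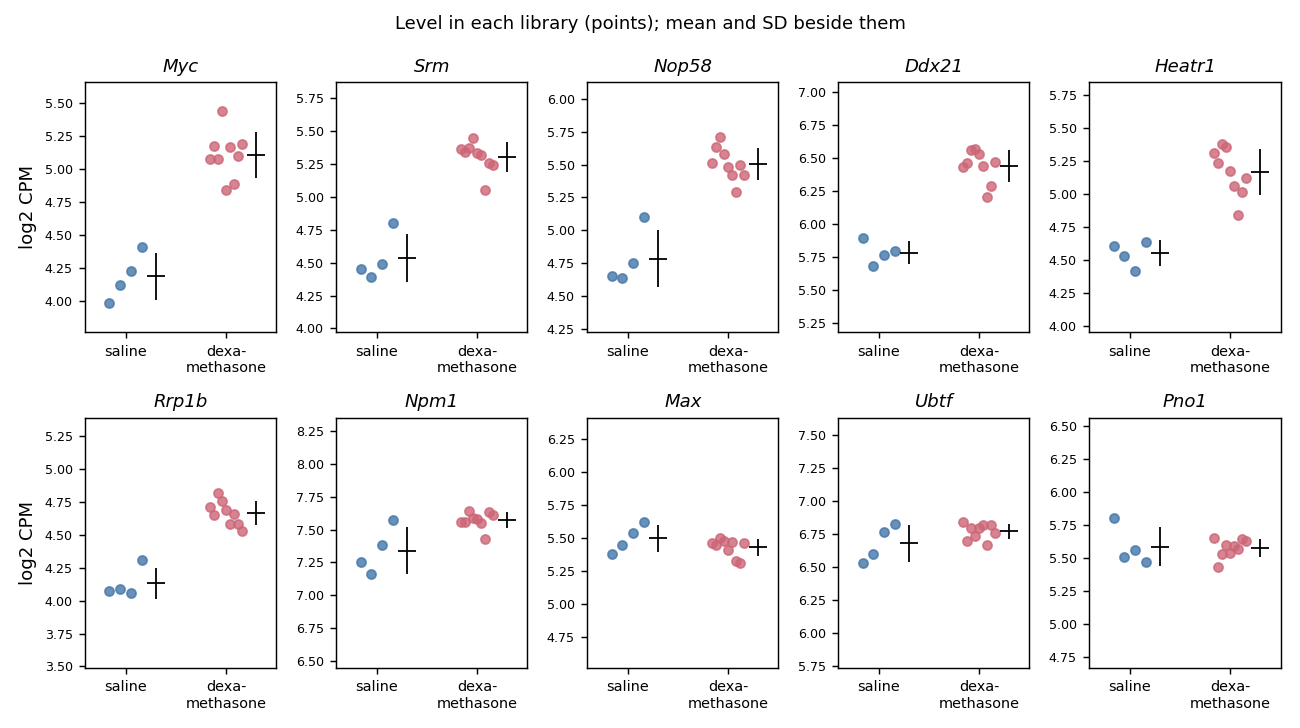
Log2 CPM of 10 of the genes in each library (points in order of mouse number within a group), with the group mean and SD beside them; every panel spans the same 1.9 log2 units. Myc, Srm, Nop58, Ddx21, Heatr1 and Rrp1b do not overlap between groups, whereas Npm1, Max, Ubtf and Pno1 do.

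Of the 10 small subunit factors 5 rose and 0 fell, beside 25.2% and 22.9% of all genes, and their median was 0.10. Heatr1, an early factor that also acts in polymerase I transcription, stood at 4.61, 4.53, 4.42 and 4.64 log2 CPM in saline and at 4.84 to 5.38 with a median of 5.18 in dexamethasone libraries. Dexamethasone library 7 was the lowest of its group and still above all saline libraries (log2 fold change 0.62 ± 0.09, SE; limma adjusted p 3.9e-05). Utp20, a large scaffold of the early small subunit particle, rose 1.45-fold, Wdr43 of the same particle 1.23-fold and Tsr1, of late maturation, 1.28-fold, all without overlap. Noc4l rose 1.10-fold only just past the threshold (limma adjusted p 0.049), a call lost in 19 of 25 alternative fits.

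Pno1, a factor of late small subunit maturation, had the highest level per length of these 10, at 31.2 and 30.9 CPM per kilobase. It stood at 5.80, 5.51, 5.56 and 5.47 log2 CPM in saline and at 5.43 to 5.65 with a median of 5.59 in dexamethasone libraries. The groups overlapped, saline library 1 being the highest of all (log2 fold change -0.0083, 95% interval from -0.13 to 0.12). Bysl, Ltv1, Rrp12 and Nop14, further small subunit factors, had log2 fold changes of -0.0069, 0.063, -0.0028 and 0.011, with 95% intervals from -0.14 at the lowest (Rrp12) to 0.17 at the highest (Ltv1).

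Among 45 other small subunit genes 23 rose and 5 fell, beside 25.2% and 22.9% of all genes, with a median of 0.17. Utp15 and Wdr75, which act with polymerase I at the start of assembly, rose 1.40- and 1.38-fold, Rcl1 1.34-fold and Imp4, a U3 partner, 1.26-fold.

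Of 11 large subunit factors 8 rose and 0 fell, beside 25.2% and 22.9% of all genes, with a median of 0.26. Rrp1b stood at 4.07, 4.09, 4.06 and 4.31 log2 CPM in saline and at 4.53 to 4.82 with a median of 4.66 in dexamethasone libraries. The groups did not overlap (log2 fold change 0.53 ± 0.06, SE; limma adjusted p 8.82e-06). Bop1, which forms a processing complex with Pes1 and Wdr12, had the highest level per length of the 11, at 20.3 and 24.4 CPM per kilobase. It stood at 5.64, 5.64, 5.65 and 5.72 log2 CPM in saline and at 5.78 to 6.00 with a median of 5.91 in dexamethasone libraries, again without overlap (log2 fold change 0.26 ± 0.05, SE; limma adjusted p 0.000482).

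The 3 subunits of that complex gave different values. Pes1 rose 1.13-fold (limma adjusted p 0.00419), while Wdr12 had a log2 fold change of 0.024 with a 95% interval from -0.10 to 0.15 (limma adjusted p 0.762). Whether the 3 differ from each other was not tested. Gnl3, the nucleostemin of proliferating progenitors, rose 1.37-fold, Rrs1 1.27-fold, Noc2l 1.24-fold, Nip7 1.19-fold and Nop2, a ribosomal RNA methyltransferase, 1.14-fold. The Nop2 call (limma adjusted p 0.0335) was lost in 8 of 25 alternative fits. Nop16 and Grwd1 had log2 fold changes of 0.15 and 0.12 (limma adjusted p 0.137 and 0.162).

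Among 50 other large subunit genes 24 rose and 5 fell, with a median of 0.15. Nol9, a kinase of precursor processing, rose 1.32-fold, Eif6, which keeps the large subunit from joining too early, 1.25-fold and the helicase Ddx54 1.21-fold. Nop53 was 1.36-fold lower. Of 13 genes of the RNA exosome, which trims precursor ends, 5 rose and 2 fell, among them the nuclease Dis3 (1.30-fold higher). Over all 5 lists of ribosome assembly genes outside the 40, 60 of 131 rose (45.8%) and 14 fell (10.7%), beside 25.2% and 22.9% of all genes. These lists too were chosen with earlier results of these data known.

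The multifunctional nucleolar proteins and spermidine synthase all rose, 5 of 5. Srm (chromosome 4, 148591513 to 148594619), which makes the polyamine spermidine, stood at 4.45, 4.39, 4.49 and 4.80 log2 CPM in saline and at 5.05 to 5.45 with a median of 5.33 in dexamethasone libraries. The groups did not overlap (log2 fold change 0.77 ± 0.08, SE; limma adjusted p 1.86e-06). Ddx21, a helicase that couples polymerase I transcription to processing, averaged 5.78 ± 0.09 log2 CPM under saline (SD, n = 4) and 6.44 ± 0.12 under dexamethasone (SD, n = 9), with all 9 dexamethasone libraries above the saline range. Mybbp1a, a nucleolar MYB-binding protein, rose 1.24-fold.

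Npm1 and Ncl, the abundant histone chaperones nucleophosmin and nucleolin, rose less. Npm1 had the highest level per length of all 40 genes, at 99.6 CPM per kilobase in saline and 117 in dexamethasone. It stood at 7.25, 7.16, 7.38 and 7.57 log2 CPM in saline and at 7.43 to 7.64 with a median of 7.58 in dexamethasone libraries. Saline library 5 overlapped with the dexamethasone range, and 5 of 9 dexamethasone libraries lay above it (log2 fold change 0.24 ± 0.06, SE; limma adjusted p 0.00595). Npm1 has processed copies elsewhere in the genome, so its reads are uncertain. Ncl rose 1.19-fold, with 8 of 9 dexamethasone libraries above the highest saline library.

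Of 10 other genes of polyamine metabolism 3 rose and 3 fell, shares near the 25.2% and 22.9% of all genes. Odc1, the rate-limiting ornithine decarboxylase, rose 1.44-fold. Of the other risers, named after their values were seen, Amd1, which supplies the aminopropyl donor, had a log2 fold change of 0.25 and Azin1, the antizyme inhibitor, 0.18. The antizymes Oaz1 and Oaz2, which mark ornithine decarboxylase for breakdown, were 1.24- and 1.41-fold lower, and Sat1, the polyamine acetyltransferase, 1.36-fold lower.

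Of 30 MYC-linked genes outside the nucleolus, among them Odc1, 16 rose and 5 fell, with a median of 0.16. Mthfd2, of mitochondrial folate metabolism, rose 1.67-fold and Slc3a2, an amino acid transporter subunit, 1.51-fold. Tfrc, the transferrin receptor, went the other way, 1.94-fold lower. Of 18 p53 targets, which can respond to failing ribosome assembly, 4 rose and 5 fell, shares near the 25.2% and 22.9% of all genes. Plk3 and Plk2, stress kinases, rose 2.85- and 1.78-fold and Eda2r 1.66-fold, whereas Trp53inp1 was 1.66-fold lower.

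**Figure D3:**
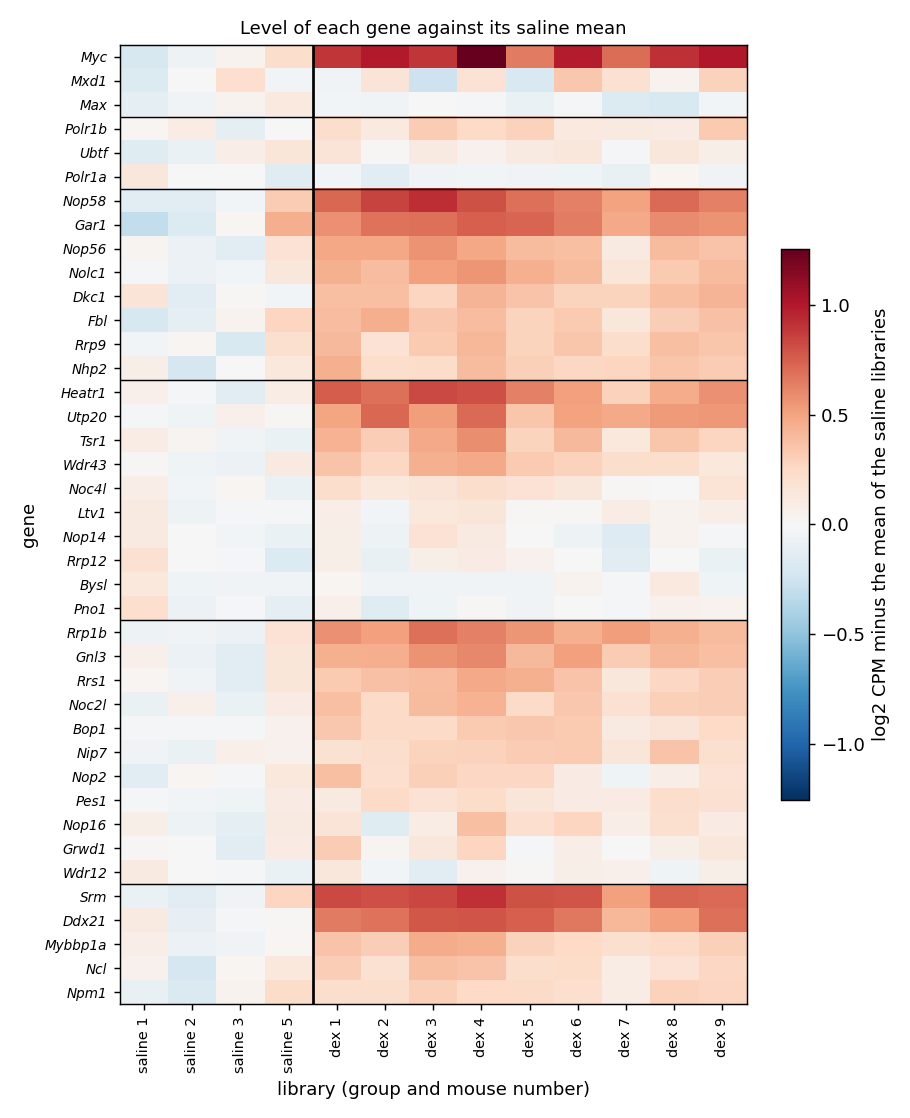
Log2 CPM of each of the 40 genes in each of the 13 libraries minus the mean of the 4 saline libraries, with role groups set apart by lines. Myc, Srm and Nop58 are the darkest rows, dexamethasone library 7 is the palest of its group, and saline library 5 is the reddest of the saline group.

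Libraries of the same group were not alike. As the median over the 40 genes of the difference from the saline mean, dexamethasone libraries ranged from 0.14 (library 7) to 0.38 (library 4) and saline libraries from -0.05 (library 2) to 0.11 (library 5). Dexamethasone library 7 was the lowest of its group for 21 of the 40 genes and library 4 the highest for 14. Saline library 5 was the highest of its group for 24. Leaving out any 1 library gave 26 to 28 genes called higher and 0 lower.

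Markers of dividing cells were higher under dexamethasone. All 16 proliferation markers rose, with a median log2 fold change of 0.67. Their summed level was 273 to 456 CPM in saline and 450 to 619 CPM in dexamethasone libraries. Saline library 5 had the highest sum of its group (456 CPM) and dexamethasone library 7 the lowest of its own (450 CPM), so the 2 groups overlapped there. These same libraries bounded their groups in the median difference from the saline mean over the 40 genes. Other libraries did not keep the order of the markers. Dexamethasone library 2 had the highest marker sum (619 CPM) with a median of 0.23, and library 4 the highest median (0.38) with 535 CPM. Saline library 1 had the lowest sum (273 CPM) with a median of 0.02, above those of saline libraries 2 and 3. Saline library 5 and dexamethasone library 7 were compared after the values were seen and without replicates. In dexamethasone library 7, 29 of the 40 genes (72.5%) were higher, against 48.4% of all genes. The medians of the pair over the 40 genes were close, at 0.11 and 0.14. Between the groups the median log2 fold change was 0.28. Myc stood at 4.41 log2 CPM in saline library 5 and at 4.89 in dexamethasone library 7. Some called genes lay the other way, among them Npm1 (7.57 in saline library 5 and 7.43 in dexamethasone library 7), Nop2 (5.31 and 5.13), Fbl (4.93 and 4.80) and Nop56 (5.23 and 5.17). The part of proliferation in the rise was not tested.

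**Figure D4:**
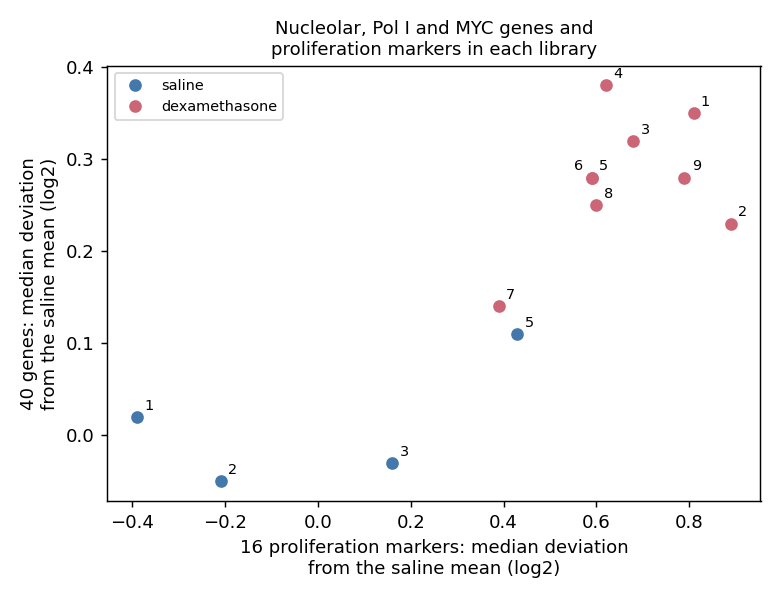
Each point is a library, numbered by mouse: the x axis gives the median over 16 proliferation markers, and the y axis the median over the 40 genes, of the difference from the saline mean in log2 units. Saline library 5 and dexamethasone library 7 lie side by side at 0.11 and 0.14 on the y axis.

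All 12 lymphocyte markers fell, from a summed 42.5 to 59.6 CPM in saline to 5.61 to 15.7 CPM in dexamethasone libraries. Of 12 mature myofibre markers 6 fell while 0 rose. That count of 6 depended on the fit: it was 10 without the intensity trend, 9 with the low filter and 5 with array weights. The other lists had calls in shares mostly near or under the 25.2% higher and 22.9% lower of all genes. Of 10 macrophage markers 3 rose and 1 fell, with sums of 1090 to 1680 and 1310 to 1470 CPM. Of 8 myoblast markers 3 rose and 1 fell (sums of 396 to 699 and 505 to 670 CPM). Of 8 fibro-adipogenic progenitor markers 0 rose and 2 fell (9490 to 13300 and 9240 to 13100 CPM), of 8 endothelial markers 1 rose and 0 fell (322 to 384 and 320 to 384 CPM), and of 8 neutrophil markers 1 rose and 2 fell (30.8 to 268 and 31.1 to 54.6 CPM, the highest in saline library 3). Without saline library 3 and dexamethasone library 4, 25 of the 40 genes were called higher and 0 lower. Each of these markers had at least 1 read in every library. In whole muscle, a change in the number of cells of a type and a change in RNA per cell cannot be told apart, and the part of cell makeup in these results was not tested.

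Promoters were examined for what the genes share beyond their function. RefSeq windows on GRCm38.p6, the assembly of mm10, run from 250 bases before to 50 after an annotated start and were found for 33 of the 40 genes. That start was not always the outer end of the gene. In Nop58, Grwd1, Max and Wdr43, among others, it lay inside the gene interval, and distances are from the start used. The E-box CACGTG, a palindrome read alike on both strands, lay in 10 of these 33 genes (30.3%), against 11.3% of the 11746 tested genes with a window. Of its 10 sites, 9 lay from 10 bases before the start onward, against 19.5% of the 1589 sites in promoters of tested genes. That position was noticed after the sites were seen. The related CACGCG, searched on both strands, lay in 30.3% of the 33 genes and in 18.6% of tested genes. The strict palindromic glucocorticoid response element lay in 0 of the 42 windows of these 33 genes and in 1 of 11746 tested genes, so its absence says only that these letters are not in the windows.

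The 30 bases that hold each E-box (capitals) show how close the motif comes to the start in genes that rose and in genes that did not. They are given 5′ to 3′ on the strand of the gene, ordered by fold change.
Utp20, chr10:88826765-88826794, minus strand, motif 37 bases after the start: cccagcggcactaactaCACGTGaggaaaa
Tsr1, chr11:74898092-74898121, plus strand, 24 after: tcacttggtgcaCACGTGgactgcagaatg
Mybbp1a, chr11:72441347-72441376, plus strand, 40 after: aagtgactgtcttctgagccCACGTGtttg
Wdr43, chr17:71616220-71616249, plus strand, 17 after: cgcccgggcgaaCACGTGgctgccgcggag
Nop2, chr6:125131811-125131840, plus strand, 60 before: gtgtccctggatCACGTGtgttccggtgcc
Pes1, chr11:3963965-3963994, plus strand, 2 after: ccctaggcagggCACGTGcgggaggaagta
Grwd1, chr7:45830740-45830769, minus strand, 34 after: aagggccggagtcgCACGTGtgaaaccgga
Ltv1, chr10:13193092-13193121, minus strand, 28 after: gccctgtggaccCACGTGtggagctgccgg
Pno1, chr11:17211540-17211569, minus strand, 37 after: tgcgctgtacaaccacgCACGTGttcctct
Max, chr12:76962234-76962263, minus strand, 3 before: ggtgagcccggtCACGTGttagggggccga

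Risers were found both with and without the motif. Of the 10 with an E-box in the window 6 rose, with a median log2 fold change of 0.18. Of the 23 without it 16 rose, with a median of 0.31, beside 25.2% of all genes called higher. Myc, Srm, Npm1, Fbl, Bop1, Rrs1 and Rrp12 had no window and are in neither group. All of these but Rrp12 were called higher. Myc and Srm had the largest rises of all members, with log2 fold changes of 0.92 and 0.77, so both medians leave them out. Utp20 and Pno1 carry the E-box at the same distance of 37 bases after the start, with log2 fold changes of 0.54 and -0.0083. A match in these windows is a run of letters and not evidence of binding, and sites elsewhere in the genes were not examined.

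**Figure D5:**
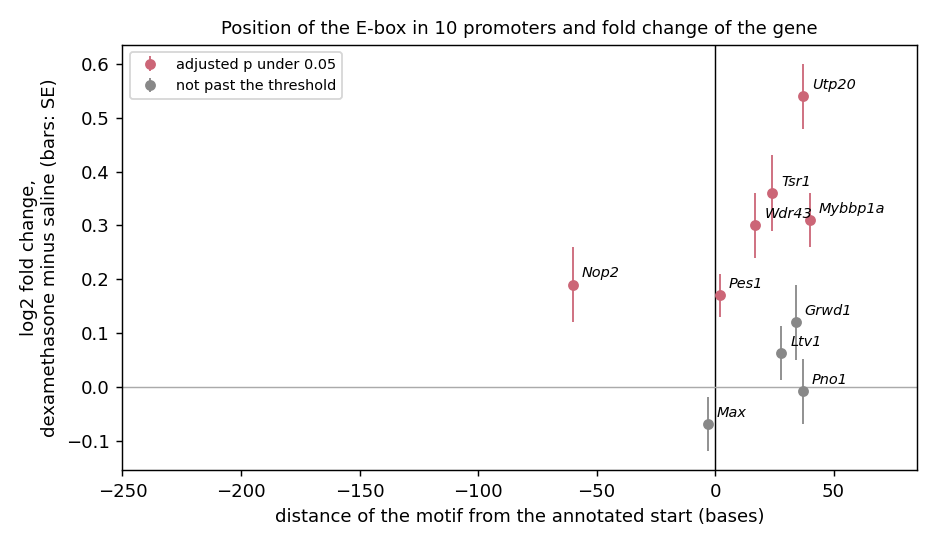
Distance of the E-box from the annotated start (x axis, bases) and log2 fold change of the gene (y axis; bars, SE) for the 10 genes with the motif in their window. Of the 10 sites 9 cluster at the start, over fold changes from -0.069 (Max) to 0.54 (Utp20).

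Upstream sequence is given for 2 snoRNP genes that rose and for the gene whose E-box lies farthest upstream, each as the 250 bases before the start, with either motif in capitals on either strand. Nop58 rose 1.65-fold and holds neither motif there, though the last bases of its stretch lie inside the gene interval given above. Nolc1 rose 1.32-fold and holds CACGCG on the opposite strand, 25 bases before the start. Nop2 rose 1.14-fold and holds the E-box 60 bases before it.
Nop58, chr1:59684756-59685005, plus strand: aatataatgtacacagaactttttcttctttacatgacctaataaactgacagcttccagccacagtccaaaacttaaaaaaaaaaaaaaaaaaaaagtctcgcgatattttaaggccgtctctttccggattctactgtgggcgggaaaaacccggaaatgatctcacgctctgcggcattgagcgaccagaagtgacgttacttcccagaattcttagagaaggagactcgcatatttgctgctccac
Nolc1, chr19:46075597-46075846, plus strand: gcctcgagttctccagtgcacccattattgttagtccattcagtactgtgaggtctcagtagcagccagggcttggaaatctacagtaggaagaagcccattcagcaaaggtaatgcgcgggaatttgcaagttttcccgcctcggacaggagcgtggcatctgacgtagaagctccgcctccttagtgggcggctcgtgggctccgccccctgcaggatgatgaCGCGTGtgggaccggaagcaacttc
Nop2, chr6:125131633-125131882, plus strand: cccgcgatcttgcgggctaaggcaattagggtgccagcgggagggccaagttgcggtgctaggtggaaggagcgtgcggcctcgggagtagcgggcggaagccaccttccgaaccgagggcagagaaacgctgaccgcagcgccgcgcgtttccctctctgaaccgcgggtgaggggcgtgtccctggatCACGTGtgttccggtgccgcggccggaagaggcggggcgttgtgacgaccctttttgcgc

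Some members share exons with a gene on the opposite strand. Tsr1 shares 32.3% of its merged exons with Srr, Noc2l 20.9% with Samd11 and Bysl 9.37% with Ccnd3. The libraries kept strand, but the strand setting of the counting is not given in the sources used here, so reads of these 3 genes are uncertain.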

How the data were processed

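Whole injured hamstring muscle was made into 1 library for each of 4 saline and 9 dexamethasone mice, with a stranded poly(A) kit, per the labels' protocols. Reads were counted with featureCounts 2.0.1 on mm10 and handled with limma 3.50.1, per the submitters' processing notes. The aligner and any low-count filter are not stated in what was used here. Deposited by the authors were log2 CPM per mouse, with the log2 fold change and adjusted p-value of their own comparison. Judged from the values, an offset of 0.5 had been added to each count before scaling and taking log2, and undoing this gave whole reads (100% of values within 0.01). The library size used for scaling was not the plain read sum. It was 25724674 for 29349446 reads in saline library 1 and 33453915 for 30396789 reads in dexamethasone library 2. It lay above the read sum in most dexamethasone libraries and below it in saline libraries 1, 2 and 3, so this adjustment is part of every fold change. A second table of 14970 genes, normalised with the excluded saline mouse, served as an alternative. The column of that mouse (1) was not used.

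Groups came from the labels. All 14911 genes were fitted in limma 3.58.1 (R 4.3.3) with an intensity trend, two-sided, Benjamini-Hochberg threshold 0.05. Fold changes are differences of mean log2 CPM. The 40 members and all gene lists were chosen with earlier results of these data known, so lists are described by counts and medians, with no list test. Values per library are given for Myc, Max, Mxd1 and, in each role group, for the gene of largest fold change and of highest level per length. Up to 4 genes of smallest adjusted p are named from other lists. Levels per length used GENCODE vM21 principal coding transcripts (the median length where there were several), whose annotated ends vary. Coordinates came from RefSeq on GRCm38.p6, matched by Entrez identifier for all 40. Among 42 same-group pairs of libraries the chi-square per gene was at least 7.22, so none was a repeat deposit. In counts simulated for this comparison over 14911 genes, the fit found 99 of 100 genes set to differ by 1 log2 unit and 70 of 100 set to differ by 0.5, with 7 false among 176 calls. Only these genes were changed, and every gene had the same setting for spread between libraries. In the data 3760 genes were called higher and 3413 lower, so the shares found may differ there. The alternatives were the other table, log2 of CPM plus 1, a low filter, median centring, quantile normalisation, variance and weight settings, voom on recovered reads, the mouse number as a block and libraries left out. Figures were drawn with matplotlib 3.10.9.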

Additional observations from a re-analysis of the deposited data

Results flagged for a closer look

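Of 80 groups of libraries (40 genes in 2 treatment groups), 4 had a library set far apart from the rest by Dixon's criterion, where chance alone gives about 1 in 20. Dexamethasone library 7 was low for Npm1 (7.43 log2 CPM, next 7.55) and for Nop56 (5.17, next 5.41). Saline library 5 was high for Rrp1b (4.31, next 4.09) and saline library 1 for Bysl (5.52, next 5.35).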

How the results depend on the processing

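Over 25 alternative fits, 25 to 28 of the 40 genes were called higher and 0 lower, with a median log2 fold change from 0.25 to 0.32. Of the 28 calls 24 held in every fit. Noc4l was lost in 19, Nop2 in 8, Pes1 in 1 (the block, adjusted p 0.0597, limma) and Polr1b in 1. Of the 12 other genes, Nop16 passed in 2 fits and Ubtf in 1. No called gene changed direction. Over all genes, leaving out 1 library gave 3357 to 3767 higher and 2949 to 3409 lower. Same-numbered mice did not deviate together (correlations of deviations from -0.07 to 0.118, 3 of 8 libraries closest to their own number). With the replicate block on the 8 libraries numbered in both groups, 26 genes were called higher, against 27 on the same libraries without it. The 4 genes whose calls were lost had the smallest folds of the 28, from 1.10 to 1.16.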
